A study of Mus musculus with 36 samples.

Results

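The genes described here are 8 markers of Schwann cells and peripheral myelin, namely Mbp, Pmp22, Prx, Mag, S100b, Sox10, Ncmap and Cnp, read in whole-muscle libraries as genes of the cells that sheathe its nerves. They are the rows of the deposited soleus and tibialis anterior (TA) count tables whose Ensembl identifiers map to these symbols. All 8 were found among the 51912 genes of the tables, and all 8 passed the filter on low counts in every comparison. The study asked what the BMP-binding Ig3 domain of MuSK, a receptor of the muscle membrane and its synapse, does in fast and slow muscle. It profiled RNA from whole muscles of 3-month-old male C57BL/6 mice in 4 groups of 9 libraries, 36 in all: soleus of WT, soleus of ∆Ig3-MuSK, TA of WT and TA of ∆Ig3-MuSK mice. The ∆Ig3-MuSK mice are homozygous for a germline allele made with CRISPR-Cas9, in which the exons coding for the Ig3 domain are deleted in every cell, nerve included, and WT mice lack this allele. The methods describe 1 muscle per animal, while 16 of the identifying numbers in the labels occur in both muscles.

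Schwann cells are the glia of peripheral nerve. The myelinating kind wraps one large axon in a spiral of membrane, which compacts into myelin around most of its length and stays loose at the paranodes and incisures, and the non-myelinating kind ensheathes bundles of thin axons. In muscle, myelinating Schwann cells follow the motor and sensory axons up to the last branch, and terminal Schwann cells cap the neuromuscular junction. SOX10 sets the identity of the lineage and acts with EGR2 to switch on the genes of myelin. Several members are not particular to peripheral nerve: Mbp, Mag, Cnp, Sox10 and S100b are also genes of central glia, Pmp22 is also made by fibroblasts and endothelium, S100b by other cells including adipocytes, and Cnp at a low level by many cell types.

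The libraries held 43492062 to 78660422 counted reads each. Soleus libraries were made with the NEBNext Ultra kit and TA libraries with NEBNext Ultra II, so muscle and kit cannot be told apart. The muscle labels were checked against 6 slow-fibre genes, whose summed level was 15287 to 22268 CPM (read counts scaled to library size) in soleus libraries and 24.4 to 127.8 CPM in TA libraries. Musk itself was read at 8.07 to 18.4 CPM in soleus and 2.62 to 5.58 CPM in TA, a count over the whole gene that does not check the deletion of part of it. One library stood apart: ∆Ig3-MuSK soleus replicate 8 had a summed level of 4 tendon genes of 23.9 CPM, against 212.4 to 453.9 CPM in the other 8 of its group, and it also had the lowest summed fibroblast, adipocyte and axon levels there. By median, the largest part of the axon sum was Uchl1, at 17.4 CPM in WT soleus and 16.9 CPM in ∆Ig3-MuSK soleus. The lowest Uchl1 level in ∆Ig3-MuSK soleus was 3.01 CPM. Results without it are given for the members, the correlations and the called central glial and neuron genes. They are also given for the counts and medians of the other myelinating Schwann cell genes and the neuron lists. Other values of the marker lists include it.

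In GRCm38 coordinates of the GENCODE annotation, Pmp22 spans chr11:63128982-63159547, Prx chr7:27499324-27520214, Mag chr7:30899176-30914873, S100b chr10:76253853-76261159, Sox10 chr15:79154908-79165240, Ncmap chr4:135369576-135398227 and Cnp chr11:100574904-100591729. Mag, Sox10 and Ncmap are on the minus strand and the others on the plus strand. Exons of Prx overlap those of the antisense gene Gm15541 over 300 bases, 5.38% of the exonic bases of Prx, and those of Cnp overlap Dnajc7 over 154 bases, 4.23%. The libraries were not stranded, so reads from these stretches cannot be assigned to either gene of the pair.

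Promoter sequences (250 bases before to 50 bases after a listed start, RefSeq, GRCm38.p6) were read for 6 of the 8 members, with 12 listed starts. Mbp was left out of this search, and no entry was used for Sox10, so the counts below cover neither. They are shown because SOX10 and EGR2 act on the genes of myelin. The part of these factors in the variation of the members between libraries was not tested. The 3 members with a single listed start are Prx at chr7:27499074-27499373, S100b at chr10:76253586-76253885 and Cnp at chr11:100574689-100574988, all on the plus strand, and the second listed start of Mag is at chr7:30914814-30915113 on the minus strand. Capitals mark a SOX core, ACAAAG or its reverse complement CTTTGT.
Prx: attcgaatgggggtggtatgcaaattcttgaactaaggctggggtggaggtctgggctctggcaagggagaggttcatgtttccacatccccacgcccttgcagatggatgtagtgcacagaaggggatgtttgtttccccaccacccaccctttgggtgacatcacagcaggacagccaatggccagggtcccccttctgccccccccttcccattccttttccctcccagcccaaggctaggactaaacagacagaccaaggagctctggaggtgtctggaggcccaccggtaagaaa
S100b: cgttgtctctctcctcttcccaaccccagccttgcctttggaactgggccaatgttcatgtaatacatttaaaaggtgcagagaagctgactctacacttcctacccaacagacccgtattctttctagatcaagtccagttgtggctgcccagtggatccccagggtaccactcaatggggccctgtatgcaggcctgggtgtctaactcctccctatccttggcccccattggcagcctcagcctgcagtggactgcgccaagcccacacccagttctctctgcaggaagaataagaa
Cnp: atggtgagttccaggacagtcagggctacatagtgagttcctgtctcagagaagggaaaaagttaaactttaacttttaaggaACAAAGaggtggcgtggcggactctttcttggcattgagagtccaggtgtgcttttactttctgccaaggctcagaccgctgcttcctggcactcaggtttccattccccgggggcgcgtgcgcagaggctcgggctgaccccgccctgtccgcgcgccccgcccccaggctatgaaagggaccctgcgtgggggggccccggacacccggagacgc
Mag: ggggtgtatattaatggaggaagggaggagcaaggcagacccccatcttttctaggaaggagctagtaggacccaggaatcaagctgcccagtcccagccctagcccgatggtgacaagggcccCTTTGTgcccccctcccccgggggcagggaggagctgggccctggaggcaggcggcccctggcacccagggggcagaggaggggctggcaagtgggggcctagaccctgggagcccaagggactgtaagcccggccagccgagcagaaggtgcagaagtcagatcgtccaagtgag
Both SOX cores, ACAAAG and ACAATG, were searched on both strands, as was the EGR core GTGGGCG. A SOX core was held by 3 of the 12 promoters, 2 of them windows of Mag that share the same site and the other that of Cnp, where it begins 167 bases before the start. Among all 32851 promoters of the table, 28.6% held a SOX core. The EGR core was found in 0 of the 12 and in 7.97% of all promoters. The letters of Prx and S100b shown above hold neither motif, which says nothing of what binds there.

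Mbp and Pmp22 are structural genes of compact myelin. Mbp codes for the myelin basic protein that holds the cytoplasmic faces of the membrane together. Its level (lowest, median and highest of 9 libraries) was 13.9, 17.1 and 21.4 CPM in WT TA, 13.3, 16.2 and 30.7 CPM in ∆Ig3-MuSK TA, 19.1, 20.7 and 25.2 CPM in WT soleus and 16.7, 23.9 and 34.0 CPM in ∆Ig3-MuSK soleus. The 4 groups overlapped, and the spread was widest in both ∆Ig3-MuSK groups. Pmp22, a tetraspan protein of compact myelin, was read at 18.4, 21.3 and 26.1 CPM in WT TA, 15.7, 19.1 and 32.1 CPM in ∆Ig3-MuSK TA, 26.6, 31.1 and 37.0 CPM in WT soleus and 27.6, 32.4 and 34.8 CPM in ∆Ig3-MuSK soleus. Every WT soleus library lay above every WT TA library for Pmp22, and a single ∆Ig3-MuSK TA library reached the soleus range.

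Prx, Mag, Ncmap and Cnp belong to the non-compact and outer membrane of the myelin sheath. Prx, or periaxin, is the scaffold that links the outer Schwann cell membrane to the basal lamina, and it is the member most particular to myelinating Schwann cells. It was read at 3.35, 6.45 and 8.74 CPM in WT TA, 5.20, 6.89 and 10.1 CPM in ∆Ig3-MuSK TA, 4.28, 7.95 and 9.65 CPM in WT soleus and 4.81, 7.05 and 12.7 CPM in ∆Ig3-MuSK soleus. All 4 groups covered much the same range. Mag, an adhesion molecule of the membrane that faces the axon, was read at 0.343, 0.637 and 0.824 CPM in WT TA, 0.587, 0.713 and 1.09 CPM in ∆Ig3-MuSK TA, 0.411, 0.734 and 0.930 CPM in WT soleus and 0.636, 0.874 and 1.198 CPM in ∆Ig3-MuSK soleus. Ncmap, a small membrane protein of non-compact peripheral myelin, was read at 0.337, 0.537 and 0.792 CPM in WT TA, 0.392, 0.705 and 1.07 CPM in ∆Ig3-MuSK TA, 0.615, 0.741 and 1.18 CPM in WT soleus and 0.575, 0.950 and 1.45 CPM in ∆Ig3-MuSK soleus. For both genes the ∆Ig3-MuSK libraries reached higher than the WT libraries of the same muscle while overlapping them, and these levels rest on only 20 to 64 reads a library for Mag and 18 to 73 for Ncmap. Cnp, an enzyme of the cytoplasmic channels of myelin, was read at 17.6, 19.1 and 21.0 CPM in WT TA, 17.6, 19.2 and 20.8 CPM in ∆Ig3-MuSK TA, 18.6, 19.6 and 23.6 CPM in WT soleus and 17.7, 22.2 and 24.2 CPM in ∆Ig3-MuSK soleus. Its range was narrow in each group.

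The 2 markers of Schwann cell identity were of low level. Sox10, the lineage transcription factor, was read at 0.543, 1.36 and 1.92 CPM in WT TA, 1.03, 1.48 and 1.99 CPM in ∆Ig3-MuSK TA, 0.802, 1.74 and 1.97 CPM in WT soleus and 1.07, 1.67 and 2.85 CPM in ∆Ig3-MuSK soleus. S100b, a calcium-binding protein of Schwann cells, was read at 0.919, 1.11 and 1.47 CPM in WT TA, 0.705, 0.891 and 2.04 CPM in ∆Ig3-MuSK TA, 0.679, 1.01 and 1.16 CPM in WT soleus and 0.554, 1.14 and 1.49 CPM in ∆Ig3-MuSK soleus. The groups overlapped throughout for both genes. None of the 8 members was at 0 in any library.

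**Figure D1:**
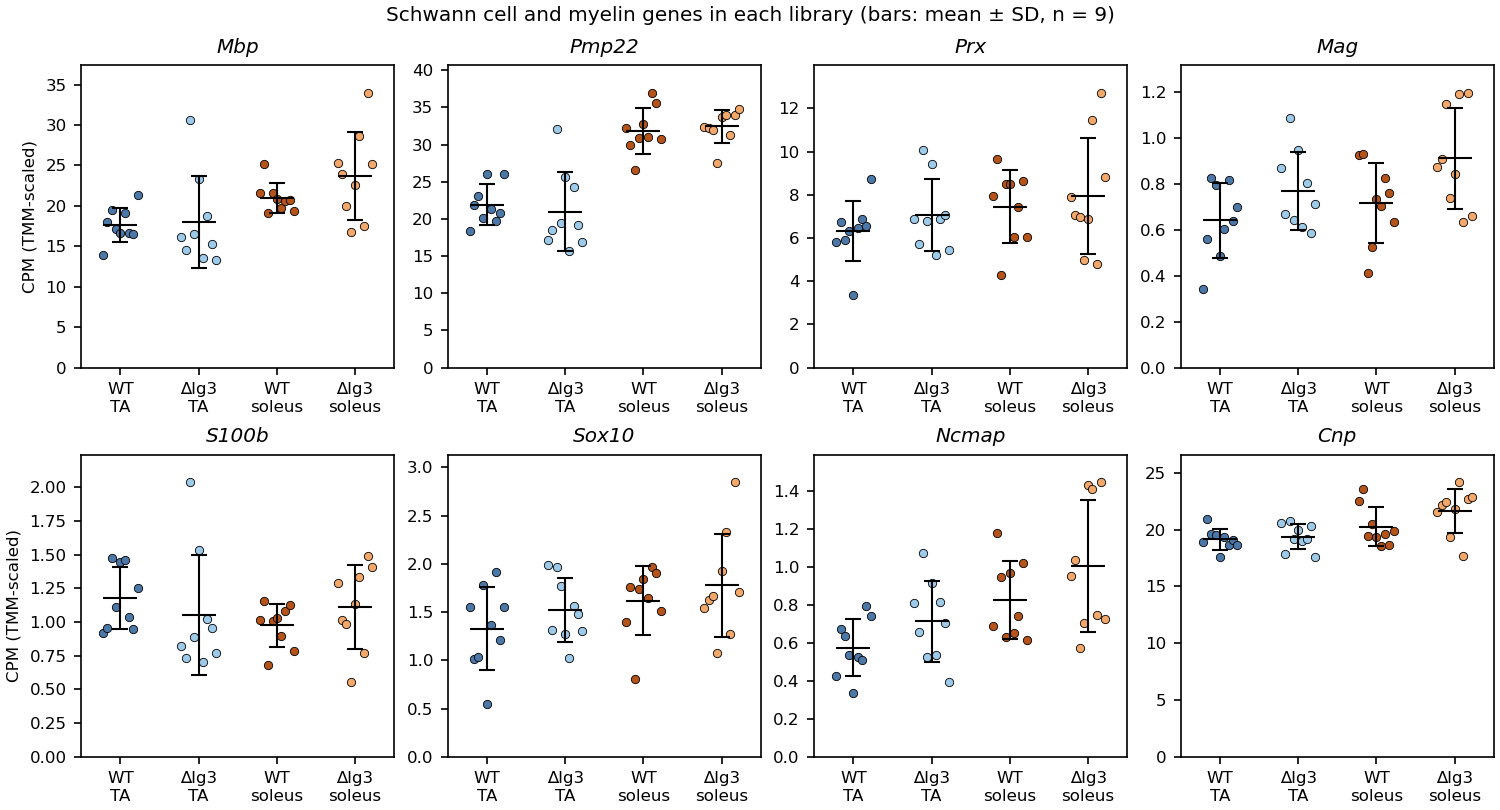
Level of each member in CPM (y axis, from 0, scaled by TMM over all libraries) in the 9 libraries of each of the 4 groups (points, in replicate order from left to right), with the mean and SD as bars. Pmp22 has soleus libraries at 26.6 to 37.0 CPM and WT TA libraries at 18.4 to 26.1 CPM, while Prx and Sox10 overlap across all groups.

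Compared per length of exon, so that genes can be set side by side, the order of the mean levels was the same in every group: Pmp22, Cnp, Mbp, Prx, S100b, Sox10, Ncmap and Mag. In WT soleus the level per kilobase of exon ran from 13.5 ± 1.31 CPM (SD, n = 9) for Pmp22 and 5.56 ± 0.473 CPM for Cnp through 1.34 ± 0.302 CPM for Prx to 0.176 ± 0.0426 CPM for Mag. Neighbours in this order were well separated at the top, while the S100b and Sox10 levels per kilobase, 0.656 ± 0.107 CPM and 0.531 ± 0.117 CPM, overlapped within their SDs. Across groups, the mean level was highest in ∆Ig3-MuSK soleus for 7 of 8 members, S100b being the exception, and lowest in WT TA for 6 of 8. For 5 of 8 members the means were lowest in WT TA and went up through the TA of ∆Ig3-MuSK mice and WT soleus to ∆Ig3-MuSK soleus, but only the steps tested below can be read as differences.

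The first comparison asked whether the Schwann cell genes differed by genotype within the soleus. A difference was not detectable for any member: 0 of 8 were called by the edgeR quasi-likelihood test (adjusted p under 0.05 and at least 1.2-fold), where 0.952% of the 19439 genes tested were called, 0.365% higher and 0.586% lower. At an unadjusted p under 0.05 the count was 0 of 8, against 18.5% of genes, and DESeq2 and limma-voom also called 0 of 8. All 8 values were above 0, with a median log2 difference of 0.14 over the members and -0.0017 over all genes. Members varied together between the libraries of a muscle (median r over pairs of 0.62 in soleus and 0.52 in TA). The directions of their differences are therefore not independent in either muscle. Mag had the highest log2 difference, 0.33 (SE 0.16, adjusted p = 0.285). Its level was 0.911 ± 0.222 CPM in ∆Ig3-MuSK and 0.717 ± 0.174 CPM in WT soleus (SD, n = 9). For Mbp the log2 difference was 0.17 (SE 0.10, adjusted p = 0.403), from 23.7 ± 5.44 CPM in ∆Ig3-MuSK and 21.0 ± 1.81 CPM in WT. Cnp had the tightest bound, a log2 difference of 0.085 with a 95% interval of -0.031 to 0.20. Next was Pmp22, at 0.014 with an interval of -0.11 to 0.13. Prx, at 7.95 ± 2.68 CPM and 7.45 ± 1.68 CPM, had a difference of 0.077 with an interval of -0.29 to 0.44. Any log2 difference within that interval, below or above 0, is not excluded for Prx. Over all 8 members the intervals ran from -0.29 to 0.67. In whole muscle, the number of Schwann cells and the RNA in each of them cannot be told apart.

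Leaving out single soleus libraries moved these values without changing a call. Without ∆Ig3-MuSK replicate 8, the library that stood apart, 7 of 8 values were above 0, the median was 0.087, Prx turned to -0.026 and Mbp was 0.093. Without WT replicate 3, the lowest library of its group, 7 of 8 were above 0 with a median of 0.097, and Pmp22 turned to -0.016. Without ∆Ig3-MuSK replicate 4, whose member levels were the lowest of its group on average, 8 of 8 were above 0 with a median of 0.20, and Mag was 0.36 (SE 0.17, adjusted p = 0.273).

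In the TA the same comparison also gave 0 of 8 members called, against 0.0149% of 20075 genes, and 0 of 8 at an unadjusted p under 0.05, against 24.1% of genes. DESeq2 and limma-voom called 0 of 8 as well. The median log2 difference was 0.095 over the members and -0.0032 over all genes, with 6 of 8 values above 0. Ncmap was at 0.714 ± 0.213 CPM in ∆Ig3-MuSK and 0.575 ± 0.148 CPM in WT (SD, n = 9), a log2 difference of 0.31 (SE 0.18, adjusted p = 0.298). Mag differed by 0.27 (SE 0.16, adjusted p = 0.297), Sox10 by 0.19 (SE 0.18), Prx by 0.16 (SE 0.14) and S100b by -0.16 (SE 0.19). Mbp, at 18.01 ± 5.67 CPM and 17.6 ± 2.15 CPM, differed by 0.030 with an interval of -0.25 to 0.31. The tightest interval was that of Cnp, -0.077 to 0.11, and the others reached from -0.56 for S100b to 0.69 for Ncmap. Leaving out ∆Ig3-MuSK replicate 3, the library highest for 7 of 8 members, turned Mbp to -0.10 and moved S100b to -0.34 (SE 0.16, adjusted p = 0.147), with 5 of 8 values above 0 and a median of 0.042.

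**Figure D2:**
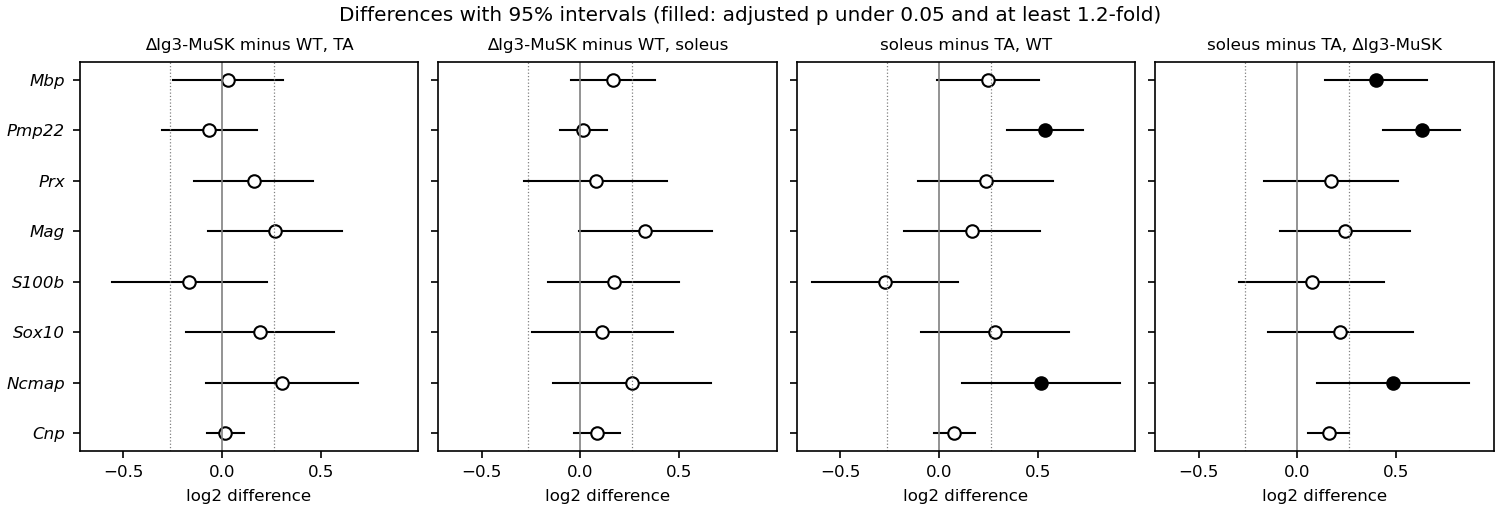
Log2 difference of each member (x axis) in the genotype comparison of each muscle and the muscle comparison of each genotype, with 95% intervals as lines and the 1.2-fold limits as dotted lines. Every genotype interval includes 0, and filled points mark Pmp22 and Ncmap in both muscle comparisons and Mbp in that of ∆Ig3-MuSK.

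The second comparison asked whether soleus and TA differed in the same genes. In WT mice 2 of 8 members were called, both higher in soleus, where 57.5% of the 20841 genes tested were called, 30.2% higher and 27.3% lower. At an unadjusted p under 0.05 there were the same 2 of 8, against 69.6% of genes, so the share of members was below that of all genes. Pmp22 was 1.45-fold higher in soleus, 31.9 ± 3.07 CPM against 21.9 ± 2.70 CPM (SD, n = 9), a log2 difference of 0.54 (SE 0.096, adjusted p = 5.90e-06). Its groups did not overlap, as was the case for 28.3% of all genes. Ncmap was 1.43-fold higher, 0.826 ± 0.205 CPM against 0.575 ± 0.148 CPM, a log2 difference of 0.52 (SE 0.20, adjusted p = 0.0209). That call for Ncmap was lost without WT TA replicate 5 (adjusted p = 0.0504) or WT soleus replicate 2 (adjusted p = 0.0542). It was also lost with the number in the labels as a fixed block (adjusted p = 0.0651), but held with it as a random block under limma-voom. Of the 6 members not called, Mbp had a log2 difference of 0.25 (SE 0.13, adjusted p = 0.0811), Sox10 of 0.28 (SE 0.18), Prx of 0.24 (SE 0.17), Mag of 0.17 (SE 0.17), Cnp of 0.079 (SE 0.052) and S100b of -0.27 (SE 0.18).

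In ∆Ig3-MuSK mice 3 of 8 members were called, all higher in soleus, where 56.1% of genes were called, 28.5% higher and 27.6% lower. At an unadjusted p under 0.05 there were 4 of 8, against 68.8% of genes, and the groups did not overlap for 0 of 8, against 29.4% of genes. Pmp22 was 1.55-fold higher, 32.4 ± 2.16 CPM against 21.0 ± 5.33 CPM, a log2 difference of 0.63 (SE 0.096, adjusted p = 3.96e-07). Mbp was 1.32-fold higher, a log2 difference of 0.40 (SE 0.13, adjusted p = 0.00607). Ncmap was 1.40-fold higher, 1.00 ± 0.348 CPM against 0.714 ± 0.213 CPM, a log2 difference of 0.48 (SE 0.19, adjusted p = 0.0246), a call that was lost without any one of 5 libraries, ∆Ig3-MuSK TA replicates 4 and 9 and ∆Ig3-MuSK soleus replicates 5, 6 and 8 (highest adjusted p = 0.0647). It was also lost with the replicate number as a block (adjusted p = 0.0511) and with the number in the labels as a fixed block (adjusted p = 0.0536). The call held with the number in the labels as a random block under limma-voom. Cnp passed the adjusted p (0.00741) with a log2 difference of 0.16 (SE 0.051), which is under the 1.2-fold limit. Prx, the most particular of the markers, differed by 0.17 (SE 0.17, adjusted p = 0.383). Without both libraries of the highest member levels, ∆Ig3-MuSK soleus replicate 8 and ∆Ig3-MuSK TA replicate 3, the same 3 members were called, Mbp at 0.45 and Pmp22 at 0.72.

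Pmp22 had the largest difference between the muscles and is also a gene of fibroblasts and endothelium, so lists for these cells were read beside it, against the 30.2% of all genes called higher and 27.3% called lower in WT soleus and the 28.5% and 27.6% in ∆Ig3-MuSK soleus. The summed level of 6 endothelial genes was 212.4 to 289.6 CPM in TA and 254.7 to 402.1 CPM in soleus libraries, and 4 of 6 were called higher in soleus in WT and 3 of 6 in ∆Ig3-MuSK. Of 5 fibroblast genes 2 were called higher and 1 lower in WT soleus, and 0 higher and 1 lower in ∆Ig3-MuSK soleus. The 4 tendon genes and the 4 adipocyte genes were each called higher in soleus in both genotypes. The part of these cells in the Pmp22 difference was not tested.

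The genotype difference of the soleus was then set against that of the TA. The interaction term was called for 0 of 8 members and for 0% of the 20841 genes, and its unadjusted p was under 0.05 for 0 of 8 members and 24.9% of genes. S100b had the widest difference between the muscles, with an interaction of 0.34 (SE 0.26, adjusted p = 0.403), and an interval of -0.18 to 0.87. For the other 7 members the interaction lay between -0.069 and 0.15.

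Libraries of one group differed widely in most members. Prx differed 2.61-fold between the highest and the lowest WT TA library, 2.26-fold in WT soleus, 1.94-fold in ∆Ig3-MuSK TA and 2.65-fold in ∆Ig3-MuSK soleus. Its coefficient of variation was 22.2% to 33.7% where counting alone would give 4.66% to 5.20%. Mbp varied by 8.65% in WT soleus and 12.2% in WT TA, but by 22.9% in ∆Ig3-MuSK soleus and 31.5% in ∆Ig3-MuSK TA, with counting error of 2.87% to 3.10%. Cnp varied by 4.78% to 9.07%, the least of the members in both TA groups and in WT soleus, while in ∆Ig3-MuSK soleus Pmp22 varied less (6.65%). The range of Cnp levels between libraries did not exceed 1.37-fold in any group. S100b reached 42.5% in ∆Ig3-MuSK TA, and Mag varied by 22.03% to 25.4% with a counting error of 14.1% to 16.7%.

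The same libraries were high or low for most members. ∆Ig3-MuSK TA replicate 3 was the highest of its group for 7 of 8 members, ∆Ig3-MuSK soleus replicate 8 for 6 of 8 and WT soleus replicate 2 for 6 of 8, while WT soleus replicate 3 was the lowest for 6 of 8. WT TA replicates 1 and 5 were each the lowest for 4 of 8. Averaged over the 8 members, the deviation from the group mean on the log2 scale ran from -0.33 to 0.25 in WT TA, -0.35 to 0.58 in ∆Ig3-MuSK TA, -0.39 to 0.27 in WT soleus and -0.46 to 0.45 in ∆Ig3-MuSK soleus. Over the 18 libraries of a muscle, with values centred within genotype, the 28 pairs of members had a median Pearson r of 0.62 in soleus (0.19 to 0.89) and 0.52 in TA (-0.056 to 0.91). These correlations are descriptions: the values share library, depth and scaling, and a few libraries carry much of the spread. Against the mean of the other 7 members, Prx had r = 0.92 in soleus and 0.83 in TA, Mbp 0.88 and 0.89, and Pmp22 0.64 and 0.66. Sox10 followed the others with r = 0.85 in soleus and 0.33 in TA, where WT replicate 5 was lowest for Sox10, Prx, Ncmap and Cnp. Without ∆Ig3-MuSK soleus replicate 8 the median over the pairs in soleus was 0.59 (0.17 to 0.88), and r against the other members was 0.90 for Prx, 0.84 for Mbp, 0.66 for Pmp22 and 0.80 for Sox10. Without ∆Ig3-MuSK TA replicate 3 the median in TA was 0.39 (-0.28 to 0.83), with 0.80 for Prx, 0.82 for Mbp, 0.44 for Pmp22 and 0.24 for Sox10. In ∆Ig3-MuSK soleus without replicate 8, the coefficient of variation was 18.3% for Mbp and 29.0% for Prx.

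**Figure D3:**
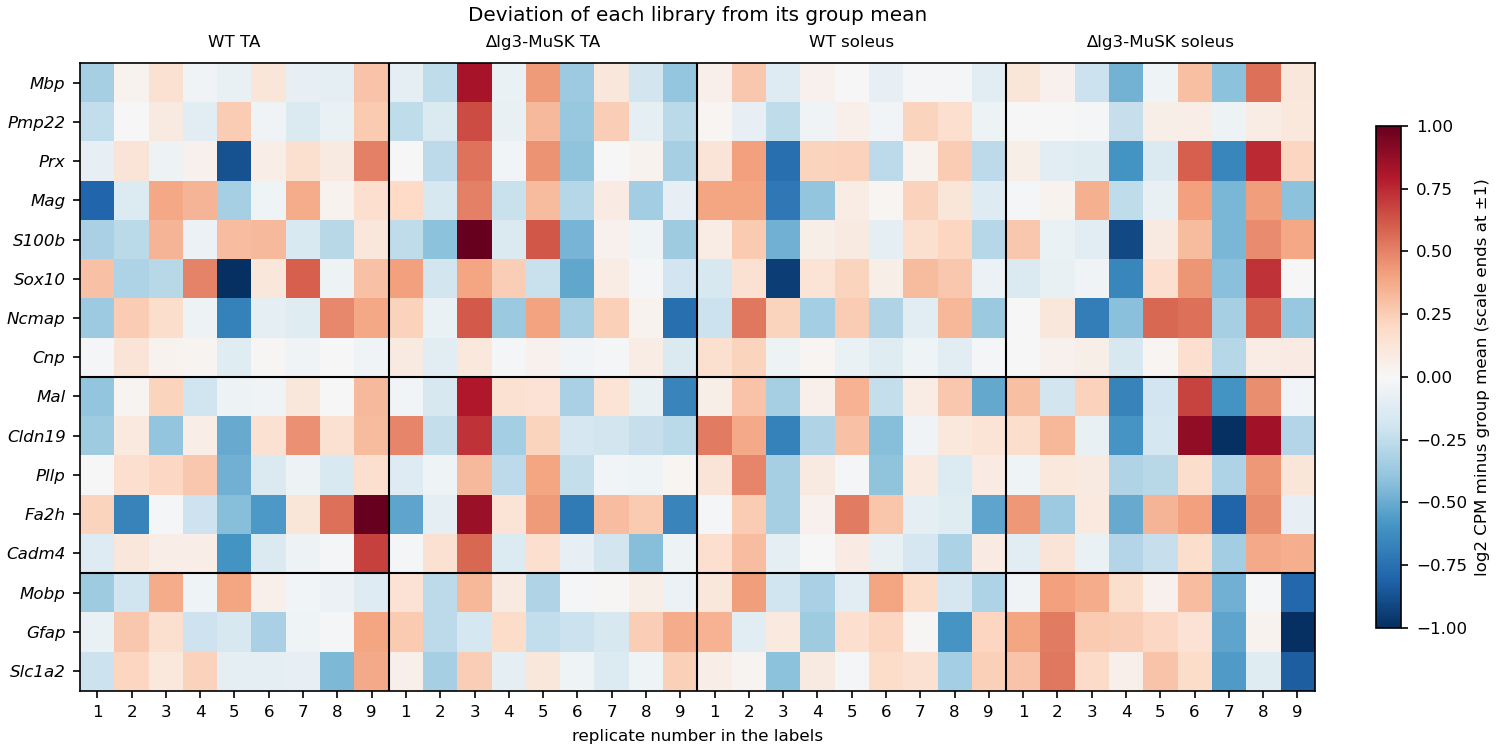
Deviation of each library (columns, by group and replicate number) from its group mean in log2 CPM (colour, red above and blue below, scale ending at ±1), for the 8 members (top block), 5 other genes of myelinating Schwann cells (middle) and 3 central glial genes (bottom). ∆Ig3-MuSK TA replicate 3 and ∆Ig3-MuSK soleus replicate 8 are red over most of the top block, and ∆Ig3-MuSK soleus replicates 4 and 7 and WT soleus replicate 3 are blue.

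The genes that were not members, 20744 in all, were ranked by the smaller of their r values in the 2 muscles against the mean of the members over 18 libraries. Among the 10 highest were Mal, a proteolipid of myelin membranes (r = 0.87 in soleus and 0.85 in TA), Sfrp5, a secreted Wnt antagonist (0.77 and 0.79), Cldn19, a claudin of Schwann cell tight junctions (0.86 and 0.75), Gatm, an enzyme of creatine synthesis (0.85 and 0.71), the myelin proteolipid gene Pllp (0.73 and 0.70), Plekha4 (0.70 and 0.87), Gm12927 (0.72 and 0.67), Fa2h, which hydroxylates the fatty acids of myelin lipids (0.75 and 0.66), and Wdr46 (0.73 and 0.65). Among the 5 highest in soleus were Tenm2, Mal, Cldn19 and Gm15541, the last being the antisense gene that overlaps Prx. Among the 5 highest in TA were Plekha4, Mal and Arhgdia, and Arhgdia had r = 0.83 in TA and -0.015 in soleus. Over the 17 soleus libraries without ∆Ig3-MuSK replicate 8, the 9 genes named first had r between 0.62 for Plekha4 and 0.86 for Mal, and over the 17 TA libraries without ∆Ig3-MuSK replicate 3, between 0.51 for Gm12927 and 0.80 for Plekha4. Arhgdia then had r = 0.77 in TA and -0.027 in soleus.

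**Figure D4:**
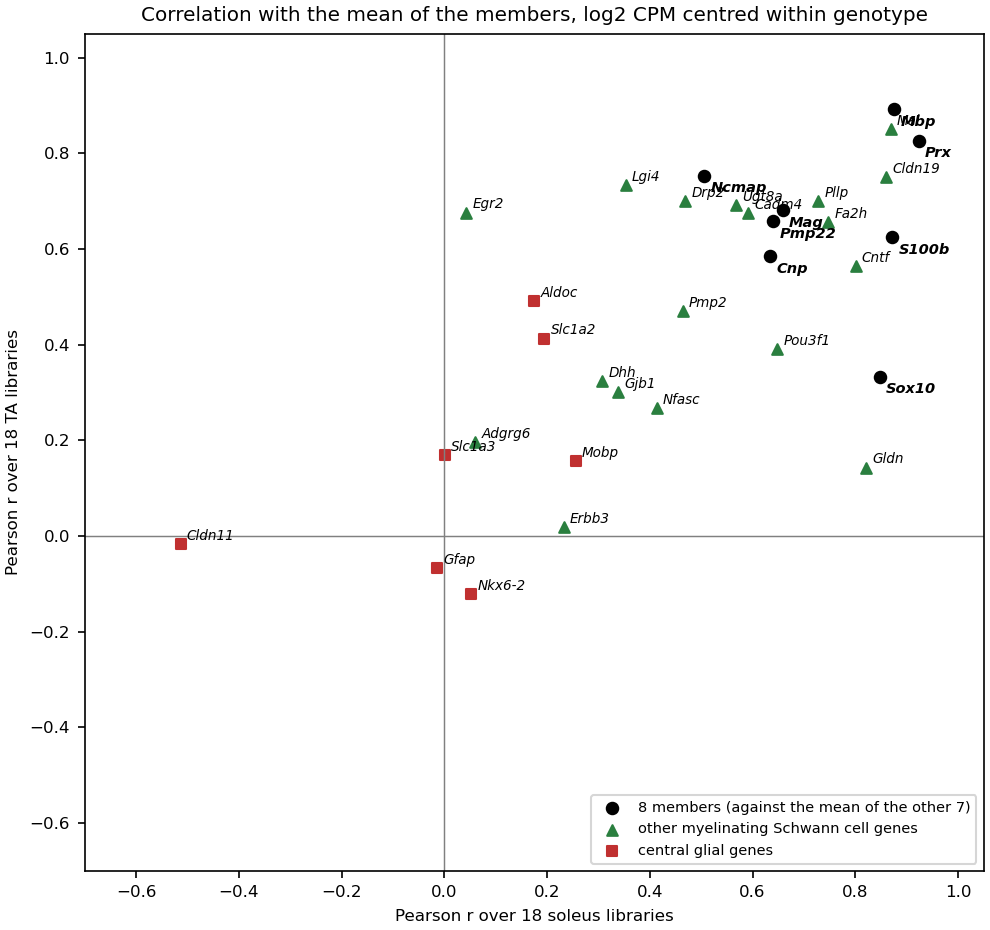
Pearson r with the mean of the members over 18 soleus libraries (x axis) and 18 TA libraries (y axis), on log2 CPM centred within genotype, for the members themselves (circles, against the mean of the other 7), other myelinating Schwann cell genes (triangles) and central glial genes (squares). Mal lies at 0.87 and 0.85, Cldn19 at 0.86 and 0.75, and Gfap and Mobp lie at -0.014 and 0.26 on the soleus axis.

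Another 20 genes of myelinating Schwann cells were tested by genotype. In each muscle 0 of 20 were called, with 3 of 20 in soleus and 2 of 20 in TA at an unadjusted p under 0.05, against 18.5% and 24.1% of all genes. In each muscle 12 of 20 values were above 0. Their median log2 difference was 0.14 in soleus and 0.065 in TA. Without ∆Ig3-MuSK soleus replicate 8, 0 of 20 were called in soleus, 2 of 20 had an unadjusted p under 0.05 and the median was 0.091. Egr2, with the smallest p in soleus, was at 0.748 CPM in ∆Ig3-MuSK and 1.35 CPM in WT, a log2 difference of -0.86 (SE 0.22, adjusted p = 0.0580). Egr2 is a factor of myelination and also an immediate early gene of many cells, and in soleus its r with the members was 0.043, or -0.045 without ∆Ig3-MuSK replicate 8. Drp2, a dystrophin-related partner of periaxin (0.29, SE 0.11, adjusted p = 0.164), and Nfasc, an adhesion gene of nodes (0.38, SE 0.16, adjusted p = 0.173), had the smallest p in TA.

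Between the muscles, 8 of the 20 were called higher in WT soleus and 0 lower, and 7 were called higher and 1 lower in ∆Ig3-MuSK soleus. Of all genes, 30.2% were called higher and 27.3% lower in WT, and 28.5% and 27.6% in ∆Ig3-MuSK. Erbb3, the neuregulin receptor of Schwann cells, was at 9.63 CPM in WT soleus and 4.16 CPM in WT TA, a log2 difference of 1.21 (SE 0.092, adjusted p = 2.60e-14). Drp2 (1.04, SE 0.10), Cadm4, an adhesion gene of the internode (1.084, SE 0.13), and Egr2 (1.27, SE 0.25) were also called higher in WT. In ∆Ig3-MuSK the 4 smallest adjusted p were those of Erbb3 (0.97, SE 0.091), Cadm4 (1.15, SE 0.13), Drp2 (0.75, SE 0.10) and Fa2h (0.82, SE 0.22), and the gene called lower was Nfasc (-0.36, SE 0.15). The summed level of the 20 genes was 39.0 to 87.9 CPM in TA and 54.9 to 107.9 CPM in soleus libraries, and that of the 8 members 56.3 to 99.8 CPM and 71.7 to 110.3 CPM.

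Markers of central glia were read beside the members because several members are shared with them. Of 9 oligodendrocyte genes 3 passed the filter in soleus, and 1 was called higher in ∆Ig3-MuSK soleus, where 0.365% of all genes were. This was Mobp, a structural gene of central myelin, at 0.447, 0.823 and 1.07 CPM in ∆Ig3-MuSK (lowest, median and highest) and 0.356, 0.420 and 0.620 CPM in WT, a log2 difference of 0.81 (SE 0.17, adjusted p = 0.0301). Of 6 astrocyte genes 4 passed the filter and 2 were called higher, Gfap (0.86, SE 0.19, adjusted p = 0.0347) and the glutamate transporter gene Slc1a2 (0.77, SE 0.15, adjusted p = 0.0290). Gfap is also a gene of non-myelinating Schwann cells. Mobp, Gfap and Slc1a2 were each above every WT soleus library in 7 of 9 ∆Ig3-MuSK soleus libraries, replicates 1 to 6 and 8, and below that line in replicates 7 and 9. Without replicate 8 the log2 differences were 0.82 (SE 0.17, adjusted p = 0.0470) for Mobp, 0.87 (SE 0.20, adjusted p = 0.0495) for Gfap and 0.79 (SE 0.16, adjusted p = 0.0367) for Slc1a2. In the TA 0 genes of either list were called. The summed oligodendrocyte level, 15.4 to 19.2 CPM in WT soleus and 15.4 to 23.4 CPM in ∆Ig3-MuSK soleus, was mostly that of Nkx6-2, at 13.4 to 20.9 CPM over the 18 libraries, and the summed astrocyte level was 4.15 to 6.66 CPM and 5.13 to 10.1 CPM.

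The members were read in the same libraries. Mag exceeded every WT soleus library in ∆Ig3-MuSK replicates 3, 6 and 8, Mbp in 1, 6 and 8, and Prx and Sox10 in 6 and 8. Ncmap did so in 5, 6 and 8, Cnp in 6, S100b in 1, 6, 8 and 9, and Pmp22 in 0 of 9. Except for replicate 9 with S100b, all of these were among the 7 libraries with high Mobp, Gfap and Slc1a2. As those are 7 of the 9 libraries of the group, most libraries fall among them, and this overlap decides nothing. Replicate 4, also among those 7 libraries, had the lowest Mbp, Pmp22, S100b and Sox10 of its group. Over the 18 soleus libraries, centred within genotype, r with the mean of the members was 0.26 for Mobp, -0.014 for Gfap and 0.19 for Slc1a2, and without ∆Ig3-MuSK replicate 8 it was 0.30, -0.027 and 0.27. The part of central glial RNA in the levels of Mag, Mbp, Cnp, Sox10 and S100b was not tested.

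Genes of axons and neurons were read beside the Schwann cell genes as well. Of 12 axon and neuron genes 10 were tested in soleus and 1 was called higher in ∆Ig3-MuSK, with 6 of 10 at an unadjusted p under 0.05, against 18.5% of all genes, and a median log2 difference of 0.47. The called gene was Syt1, a calcium sensor of synaptic vesicles, at 0.405, 1.15 and 1.501 CPM in ∆Ig3-MuSK and 0.455, 0.640 and 0.742 CPM in WT (0.84, SE 0.19, adjusted p = 0.0390). In 8 of 9 ∆Ig3-MuSK libraries it was above every WT library. Of 6 genes of central glutamate or GABA neurons 2 were called higher, 5 of 6 were at an unadjusted p under 0.05, and the median was 0.64. These were the genes of both enzymes of GABA synthesis, Gad2 (1.11, SE 0.19, adjusted p = 0.0161) and Gad1 (0.93, SE 0.20, adjusted p = 0.0323), above every WT library in 8 and 7 of 9. Without ∆Ig3-MuSK replicate 8 the adjusted p was 0.0495 for Syt1, 0.0244 for Gad2 and 0.0495 for Gad1. The axon and neuron list then had 6 of 10 at an unadjusted p under 0.05 and a median of 0.50. The central neuron list had 4 of 6 and a median of 0.67.

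The genes of peripheral axons on this list, named here after their values were seen, were not called. Prph, an intermediate filament of peripheral neurons, differed by -0.18 (SE 0.31), and Stmn2, a gene of growing axons, by -0.080 (SE 0.094). Their medians went the other way. For Prph the median was 1.57 CPM in ∆Ig3-MuSK and 1.36 CPM in WT soleus, and for Stmn2 4.03 CPM and 3.94 CPM. The lowest Prph library was at 0.158 CPM in ∆Ig3-MuSK and 0.930 CPM in WT soleus. The neurofilament gene Nefl differed by 0.91 (SE 0.26, adjusted p = 0.0790). All 3 differences include ∆Ig3-MuSK replicate 8. Nefm, another neurofilament gene, had a median of 0.418 CPM in ∆Ig3-MuSK and 0.269 CPM in WT soleus. It was above every WT library in 6 of 9 ∆Ig3-MuSK libraries and below every WT library in 1. Chat, which codes for the enzyme of acetylcholine synthesis, and Nefh did not pass the filter on low counts. In the TA 0 genes of either neuron list were called, 0 were at an unadjusted p under 0.05, and the medians were -0.096 and -0.045. The summed axon and neuron level was 24.9 to 44.8 CPM in WT soleus and 15.7 to 46.0 CPM in ∆Ig3-MuSK soleus. Of these sums Uchl1 made 11.0 to 30.8 CPM and 3.01 to 23.4 CPM. The summed level of the central neuron list was 52.3 to 100.8 CPM and 71.7 to 98.7 CPM, mostly Camk2a, which muscle also makes. The members are genes of Schwann cells and do not measure axons, and the part of neuronal RNA in any of these values was not tested.

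**Figure D5:**
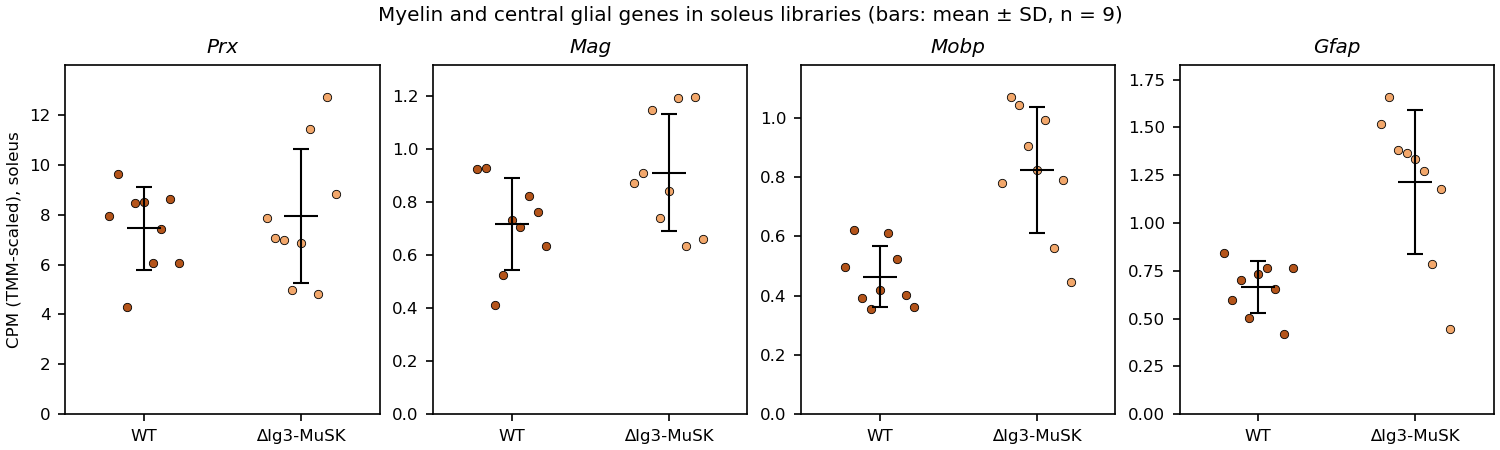
Level in CPM (y axis, from 0) of Prx, Mag, Mobp and Gfap in the 9 WT and 9 ∆Ig3-MuSK soleus libraries (points, in replicate order), with the mean and SD as bars. For Mobp and Gfap 7 of 9 ∆Ig3-MuSK libraries lie above all WT libraries, and for Prx 2 of 9 do.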

How the data were processed

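RNA from whole soleus and TA muscles was sequenced from non-stranded libraries. Per the labels and methods, the authors trimmed reads with Trimmomatic, aligned them with GSNAP to mm10 and counted them per gene with HTSeq; versions are not given in the sources used here. The deposited values are raw counts, 43492062 to 78660422 per library. Of 51912 gene identifiers 51633 had a symbol. No 2 libraries of a group agreed within sampling noise.

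Levels are CPM scaled with TMM over all 36 libraries; log2 CPM used a prior count of 2. Comparisons used edgeR 4.0.16 (quasi-likelihood test, R 4.3.3, filterByExpr with a minimum count of 10) with Benjamini-Hochberg adjustment over all genes: genotypes within each muscle (18 libraries), muscles and interaction over 36. A gene was called at adjusted p under 0.05 and at least 1.2-fold. The test was checked on simulated counts. Alternatives were DESeq2 1.42.0, limma 3.58.1 (voom with quality weights), other scalings, filters, blocks and leaving out each library. Named genes were all members, for each other list up to 4 called or else 2 with the smallest p, and those most correlated with the members; some of these are not reported here, and further names were chosen after their values were seen. Members and lists were chosen with earlier results of these data known.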

Additional observations from a re-analysis of the deposited data

Results flagged for a closer look

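In 32 sets of 9 libraries (8 members in 4 groups), the gap between the most extreme library and its neighbour was large for the range of the set in 3, by Dixon's criterion at 95%, which chance meets in about 1 in 20 sets. Mbp was at 25.2 CPM in WT soleus replicate 2, where the next library of that group was at 21.6 CPM. Pmp22 was at 27.56 CPM in ∆Ig3-MuSK soleus replicate 4, with the next at 31.3 CPM. Sox10 was at 0.8024 CPM in WT soleus replicate 3, with the next at 1.40 CPM. WT soleus replicates 2 and 3 were also the highest and the lowest of their group for 6 of 8 members each. For 0 of 8 members did the genotype difference in soleus differ from that in TA by the edgeR interaction term, 0 also at an unadjusted p under 0.05.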

How the results depend on the processing

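For both genotype comparisons and the interaction the count of members called was 0 of 8 under all alternatives run. In WT it was 2 of 8 for soleus against TA and became 1 with the label number as a fixed block, and 1 to 2 when a library was left out. The replicate number did not pair the samples (correlation of same-numbered deviations between genotypes from -0.28 in soleus and -0.13 in TA), nor did the label number in every pair (above 0.1 in 2 of 8 WT and 5 of 8 ∆Ig3-MuSK pairs, though all were above 0, from 0.026 and 0.032, with medians of 0.060 and 0.15 against -0.0059 and -0.024 for other pairs), so the block is only an alternative. With the replicate block 2 of 8 were called in ∆Ig3-MuSK soleus against TA, where Ncmap missed the threshold (0.47, adjusted p = 0.0511). With the label number as a fixed block Ncmap missed it in both genotypes (adjusted p = 0.0651 in WT and 0.0536 in ∆Ig3-MuSK). Under limma-voom with the label number as a random block Ncmap was called in both genotypes. In WT, Mbp was called under limma-voom (adjusted p = 0.0269).

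Some values that were not called changed direction. In the TA, Mbp was -0.054 and Cnp -0.012 under limma-voom, and Mbp was -0.011 under the replicate block. Under limma-voom the interaction was 0.048 for Prx, 0.095 for Sox10 and 0.014 for Ncmap. Leaving out single libraries gave -0.016 to 0.047 for Pmp22 and -0.026 to 0.15 for Prx in the soleus genotype comparison, -0.10 to 0.075 for Mbp and -0.0027 to 0.037 for Cnp in that of the TA, and interactions of -0.18 to 0.0099 for Prx, -0.18 to 0.024 for Sox10, -0.11 to 0.058 for Ncmap and -7.0e-05 to 0.16 for Mag. The cause of these turns was not tested. Counts over all genes moved more, from 141 to 653 called in the soleus genotype comparison, 0 to 692 in the TA and 0 to 959 for the interaction under other tools, scalings, filters and blocks, and from 22 to 602, 3 to 9 and 0 to 1300 when a library was left out. Leaving out ∆Ig3-MuSK soleus replicate 8 and ∆Ig3-MuSK TA replicate 3 together was chosen after seeing the data, as were the correlations and marker lists without either. Depth limits Mag, Ncmap, S100b and Sox10, which rest on 18 to 135 reads a library.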

Other observations

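The cells that wrap nerve bundles were measured by 5 perineurial genes. Of these 4 were called higher in soleus than in TA in WT mice and 5 in ∆Ig3-MuSK mice, where 30.2% and 28.5% of all genes were called higher. Slc2a1, the glucose transporter of the perineurial barrier and of many other cells, was at 10.4 CPM in WT soleus and 6.46 CPM in WT TA, a log2 difference of 0.69 (SE 0.079, adjusted p = 8.69e-10), and Ntng1, a netrin-like adhesion gene, differed by 1.51 (SE 0.27, adjusted p = 7.60e-06). Between genotypes 0 of 4 perineurial genes tested in soleus and 0 of 5 in TA were called, and 0 were at an unadjusted p under 0.05. Among 9 genes of non-myelinating or immature Schwann cells, 8 passed the filter. Ngfr, the low-affinity neurotrophin receptor, was lower in soleus, at 0.676 CPM against 2.05 CPM in WT (log2 difference -1.60, SE 0.17, adjusted p = 9.17e-11) and at 0.616 CPM against 2.35 CPM in ∆Ig3-MuSK (-1.93, SE 0.17). Ncam1, which muscle also makes, was higher in soleus, at 15.5 CPM against 3.51 CPM in WT (2.14, SE 0.13), and of the 8 genes tested 3 were called higher and 1 lower in WT and 3 higher and 2 lower in ∆Ig3-MuSK, where 27.3% and 27.6% of all genes were called lower.

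Some of the libraries of the 2 muscles carry the same number in their labels, which do not say whether it marks one animal. Of 16 such pairs the average deviation of the members from the group mean had the same sign in both muscles in 5. ∆Ig3-MuSK TA replicate 3, at 0.58 on the log2 scale the highest of all libraries, shares its number with ∆Ig3-MuSK soleus replicate 2, which was at -0.0015. ∆Ig3-MuSK soleus replicate 4, the lowest of all at -0.46, shares its number with ∆Ig3-MuSK TA replicate 5, which was at 0.29.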
